A study of Mus musculus with 6 samples.

Results

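The genes described here are 10 members of the T cell receptor complex and of the cytotoxic program of lymphocytes, namely Cd3d, Cd3e, Cd3g, Cd247, Cd4, Cd8a, Cd8b1, Lck, Gzmb and Nkg7. Each was matched by the symbol of its Ensembl identifier, and all 10 were found among the 54752 genes counted in the series. The T cell receptor is a pair of variable chains that recognizes a peptide held by an MHC molecule, and it cannot signal alone. The CD3 chains, encoded by Cd3d, Cd3e, Cd3g and Cd247, carry the signal into the cell, the co-receptors CD4 and CD8 bind MHC class II and class I, and the kinase Lck starts the phosphorylation cascade. Gzmb and Nkg7 belong to the granules with which CD8 T cells and natural killer (NK) cells kill their targets. In the healthy brain parenchyma, T cells are few, and most sit in the meninges, choroid plexus and perivascular spaces.

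RNA-seq was performed on the whole right hippocampus of wild-type C57BL/6 male mice (C57BL/6 J in the methods), labelled as 14 weeks of age, with 1 library per mouse. In the BCAS group (n = 3) a microcoil narrowed each common carotid artery, with the tighter coil on the right side, and tissue was taken 3 weeks later. Sham mice (n = 3) were operated on in the same way without coils. Tissue was not sorted, so blood, vessels and meningeal or choroid plexus tissue taken along with the hippocampus are part of the sample. Values are read counts per gene. The 6 libraries held 29652456 to 35607098 counts, and counts were scaled to counts per 1000000 (CPM) with the TMM factors of edgeR. The limit of detection was set at 3 counts in a library, since an observed count of 0 still allows an expected count of about 3, which equals 0.0874 to 0.0994 CPM. Such limits and the counting intervals given below cover counting error only, and both mates of a read pair could each add 1 count, so the counts of a pair are not independent. Differences were tested by the quasi-likelihood test of edgeR on the 18617 genes that passed a filter (10 counts at the median library, 0.302 CPM, in at least 3 libraries), with adjustment over all of them. A gene was a DEG when its adjusted P was below 0.05 and its log2 fold change exceeded 1 in size. Of the tested genes, 1576 (8.47%) were higher and 186 were lower in BCAS mice by these criteria, and the median log2 fold change was 0.02. With 3 mice against 3, an exact permutation test of a single value cannot go below P = 0.1.

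Hippocampal neuron markers were abundant in all libraries, with a sum over 8 genes of 4310 to 4810 CPM in sham mice and 2210 to 3310 CPM in BCAS mice, and 2 of the 8 were lower DEGs. The summed choroid plexus markers ranged from 70.7 to 4110 CPM in sham mice and from 48.2 to 5980 CPM in BCAS mice. Their level thus differed strongly between mice of one group, and the amount of choroid plexus tissue was not measured.

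The promoters of members that contrast in their sham counts are shown first. Lck was the member with the most counts in sham mice, whereas Cd3d and Nkg7 were near or at 0 there. The table of RefSeq (GRCm38.p6) start site windows used here held 8 of the 10 members, with 2 windows for Lck, and windows of Cd4 and Cd8b1 were not analysed here. The 250 bases before each start are written from 5′ to 3′ on the strand of the gene. Capitals mark the letters CAGGAA or its reverse complement TTCCTG, a core of ETS family sites, and TGTGGT or ACCACA, a core of RUNX sites, and both families are known to act in T cells. The distal Lck window is chr4:129573642-129573891 and the proximal one is chr4:129558373-129558622, both on the minus strand. Cd3d is chr9:44981536-44981785 and Nkg7 is chr7:43436888-43437137, both on the plus strand.
Lck distal: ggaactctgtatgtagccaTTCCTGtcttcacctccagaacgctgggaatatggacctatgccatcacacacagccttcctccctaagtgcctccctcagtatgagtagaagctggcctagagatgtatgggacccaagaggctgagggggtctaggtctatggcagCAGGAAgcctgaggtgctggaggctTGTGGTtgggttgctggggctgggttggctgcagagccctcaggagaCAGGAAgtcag
Lck proximal: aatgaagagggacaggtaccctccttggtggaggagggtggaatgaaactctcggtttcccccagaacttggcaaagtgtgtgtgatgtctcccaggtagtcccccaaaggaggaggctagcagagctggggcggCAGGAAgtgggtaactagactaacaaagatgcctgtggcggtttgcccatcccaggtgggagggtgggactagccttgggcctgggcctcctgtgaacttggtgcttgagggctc
Cd3d: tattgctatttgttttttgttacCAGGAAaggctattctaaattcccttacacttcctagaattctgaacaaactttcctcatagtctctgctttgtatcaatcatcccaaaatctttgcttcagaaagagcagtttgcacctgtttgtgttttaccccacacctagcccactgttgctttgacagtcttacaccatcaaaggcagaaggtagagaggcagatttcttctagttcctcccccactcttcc
Nkg7: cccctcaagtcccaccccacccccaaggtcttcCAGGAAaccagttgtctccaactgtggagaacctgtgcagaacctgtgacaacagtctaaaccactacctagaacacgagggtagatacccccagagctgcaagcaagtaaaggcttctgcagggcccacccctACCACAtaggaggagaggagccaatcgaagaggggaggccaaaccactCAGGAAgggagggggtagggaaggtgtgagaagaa
The ETS letters were found on either strand in 6 of the 9 member windows and in 25.7% of 32851 mouse windows of the same length. The RUNX letters were found in 3 of the 9, compared with 14.0% of all windows. No RUNX match overlapped an ETS match. The letters TATAAA were in 0 of the 9 windows on the gene's strand and in 7.6% of all. These are matches of letters and are not evidence of binding. The RefSeq start of Nkg7 lies downstream of the start in the annotation used for counting, so its window ends inside the counted gene.

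Of the 10 members, 8 were higher DEGs in BCAS mice, compared with 8.47% of all tested genes. Only Lck was measured above the filter in sham mice. The other 8 tested members passed the filter through the BCAS libraries alone, and such a gene had to differ to be tested, so the share of tested members called is not read further. All 10 members, Gzmb included, had a higher CPM in every BCAS mouse than in every sham mouse. This held for 25.3% of the tested genes, but for those 8 members the filter itself required it, so the comparison with that share says nothing about them. More than 3 counts were reached by 2, 3 and 5 of the 10 members in sham mice 1 to 3 and by all 10 in each BCAS mouse. The members together had 76, 76 and 94 counts in sham mice and 362, 316 and 425 in BCAS mice. This was 2.42 ± 0.278 CPM (SD, n = 3) and 11.7 ± 1.66 CPM (SD, n = 3), a ratio of 4.86. In bulk tissue, a change in the number of cells of a type and a change in RNA per cell cannot be told apart.

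**Figure D1:**
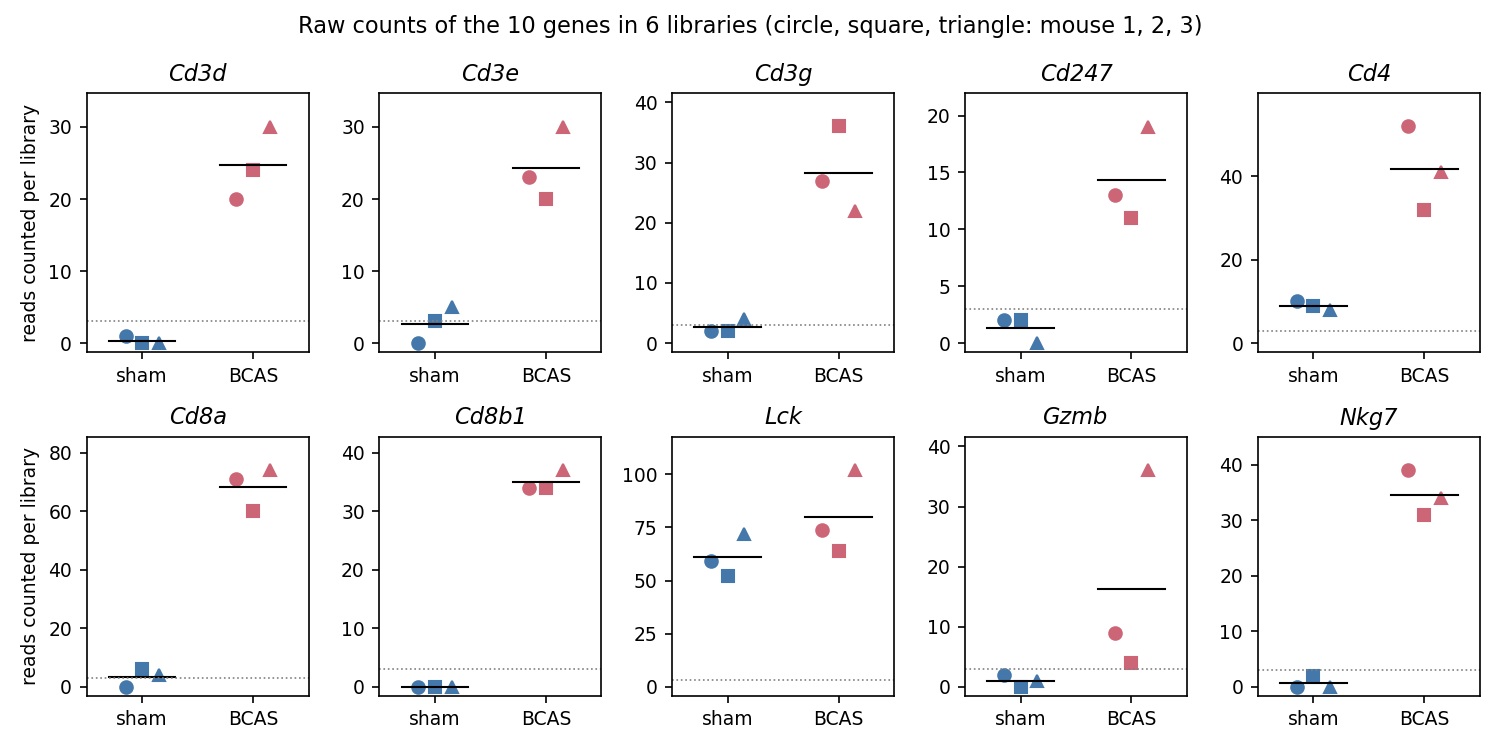
Raw read counts of the 10 members in each library, with a linear count axis per gene, a different symbol for each mouse, a line at each group mean and a dotted line at the limit of 3 counts. Counts of Cd8b1 were 0 in all sham mice and 34 to 37 in BCAS mice, whereas the counts of Lck in the groups overlapped.

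Among the CD3 chains, Cd3d (ENSMUSG00000032094.8, chr9:44981786-44987339, plus strand, mm10) encodes the delta chain. It had 1, 0 and 0 counts in sham mice 1 to 3 and 20, 24 and 30 counts in BCAS mice 1 to 3. All sham libraries were at or below the limit of detection and all BCAS libraries were above it. The mean of 0.00983 ± 0.0170 CPM in sham mice rose to 0.790 ± 0.173 CPM in BCAS mice (SD, n = 3 each), with an edgeR log2 fold change of 5.86 (SE 0.77, adjusted P = 0.00072). As sham mice held a single read in all, the ratio of the groups, 80.1, had a 95% counting interval of 13.9 to 3210, and without sham mouse 1 no sham read remained.

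Cd3e (ENSMUSG00000032093.7, chr9:44998740-45009627, minus strand), the epsilon chain needed for assembly of the receptor, had 0, 3 and 5 counts in sham mice and 23, 20 and 30 in BCAS mice. Sham mouse 3 alone exceeded the limit, and the groups did not overlap. Its log2 fold change was 3.24 (SE 0.69, edgeR adjusted P = 0.00814), and its means were 0.0785 ± 0.0735 CPM in sham and 0.777 ± 0.161 CPM in BCAS mice (SD, n = 3 each). The ratio of these means, 9.9, was 17.3 without sham mouse 3 and 6.6 without sham mouse 1. Cd3g (ENSMUSG00000002033.14, chr9:44969572-44980431, minus strand), the gamma chain, had 2, 2 and 4 counts in sham mice and 27, 36 and 22 in BCAS mice. Again a single sham library passed 3 counts, and every BCAS library had over 20. Its log2 fold change was 3.47 (SE 0.51, edgeR adjusted P = 0.00132), with a ratio of 11.5 and a counting interval of 5.58 to 27.5. Cd3g and Cd3d lie beside each other on chromosome 9 in opposite directions, with 1354 bases between them, and their exons share no base.

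Cd247 (ENSMUSG00000005763.15, chr1:165788681-165877277, plus strand), the zeta chain with the most signalling motifs of the complex, had the lowest counts of the CD3 genes in BCAS mice. It had 2, 2 and 0 counts in sham mice and 13, 11 and 19 in BCAS mice. No sham library exceeded the limit of detection and no BCAS library was near it. The log2 fold change was 3.42 (SE 0.73, edgeR adjusted P = 0.00827), and the ratio of 11.6 had a counting interval of 4.23 to 44.6 and was 7.7 without sham mouse 3. Of its 5329 exon bases, 3007 (56.4%) are shared with Pou2f1 on the opposite strand, and reads falling there were assigned to neither gene, so its counts come from the remaining part. Under glmTreat, which tests against the fold change threshold itself, the adjusted P of Cd247 was 0.0588 and that of Cd3e was 0.0604. Summed over the CD3 chains, sham mice had 5, 7 and 9 counts and BCAS mice had 83, 91 and 101. The sums were 0.206 ± 0.0574 and 2.93 ± 0.348 CPM (SD, n = 3 each), a ratio of 14.2 between the groups.

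Cd4 (ENSMUSG00000023274.14, chr6:124864692-124888221, minus strand), the co-receptor of helper T cells that some macrophages and dendritic cells also carry, was above the limit in all libraries. It had 10, 9 and 8 counts in sham mice and 52, 32 and 41 in BCAS mice. The highest sham count was well below the lowest BCAS count. Its sham mean was 0.266 ± 0.0311 CPM and its BCAS mean 1.32 ± 0.270 CPM (SD, n = 3 each). Cd4 rose by 2.30 on the log2 scale (SE 0.37, edgeR adjusted P = 0.00203).

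Both chains of CD8, the co-receptor of cytotoxic T cells, rose. Cd8a (ENSMUSG00000053977.13, chr6:71373427-71379173, plus strand), the alpha chain that also occurs on some dendritic cells, had 0, 6 and 4 counts in sham mice and 71, 60 and 74 in BCAS mice. Sham mice 2 and 3 exceeded the limit, and the BCAS mice lay close to each other. Its log2 fold change was 4.42 (SE 0.60, edgeR adjusted P = 0.0009), with means of 0.0987 ± 0.0910 CPM in sham and 2.18 ± 0.192 CPM in BCAS mice (SD, n = 3 each). The ratio of these means, 22.1, was 37.4 without sham mouse 2 and 14.7 without sham mouse 1. Cd8b1 (ENSMUSG00000053044.8, chr6:71322788-71337494, plus strand), the beta chain that is more specific to T cells, had 0 counts in each sham mouse and 34, 34 and 37 in BCAS mice. The BCAS mean was 1.12 ± 0.0701 CPM (SD, n = 3), at least 12.6-fold higher than the limit of 3 counts per sham library (edgeR adjusted P = 0.000468). In BCAS mice, counts per kilobase of Cd8b1 were 1.17, 1.39 and 1.23 times those of Cd8a in mice 1 to 3. Per kilobase, Cd8a over Cd4 was 0, 0.739 and 0.554 in sham mice and 1.51, 2.08 and 2.0 in BCAS mice. All BCAS ratios were above 1 and all sham ratios below it, at the smallest P a two-sided exact permutation test can give (P = 0.1). The sham ratios rest on 10 counts or fewer of each gene. Both genes passed the filter through the BCAS libraries alone, so this P is given as a description.

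Lck (ENSMUSG00000000409.14, chr4:129548344-129573641, minus strand) was the member with the highest level in sham tissue and the only tested member that was not a DEG. It had 59, 52 and 72 counts in sham mice and 74, 64 and 102 in BCAS mice. The raw counts overlapped, since sham mouse 3 had more reads than BCAS mouse 2, whereas the CPM values did not overlap because the BCAS libraries were smaller. The means were 1.80 ± 0.276 and 2.55 ± 0.622 CPM (SD, n = 3 each), with a log2 fold change of 0.51 (SE 0.26, edgeR adjusted P = 0.178). The ratio of the groups was 1.42 with a counting interval of 1.17 to 1.73, and it was 1.22 without BCAS mouse 3.

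Gzmb (ENSMUSG00000015437.5, chr14:56258838-56262260, minus strand) encodes granzyme B, the protease that triggers apoptosis in target cells. It had 2, 0 and 1 counts in sham mice and 9, 4 and 36 in BCAS mice, and it failed the filter on low counts. All sham libraries were below the limit of detection, BCAS mouse 2 was just above it, and BCAS mouse 3 held most of the reads. The means were 0.0294 ± 0.0295 and 0.521 ± 0.552 CPM (SD, n = 3 each). Their ratio was 17.7, with a counting interval of 5.71 to 88.7. It was 6.97 without BCAS mouse 3 and 35.8 without sham mouse 1. With the filter relaxed to at least 1 count, the edgeR log2 fold change was 3.97 (adjusted P = 0.00416).

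Nkg7 (ENSMUSG00000004612.9, chr7:43437073-43438249, plus strand), a granule membrane protein of cytotoxic T cells and NK cells, had 0, 2 and 0 counts in sham mice and 39, 31 and 34 in BCAS mice. No sham library passed the limit, and the BCAS libraries lay close together, unlike those of Gzmb. Its sham mean of 0.0199 ± 0.0345 CPM compared with a BCAS mean of 1.11 ± 0.0874 CPM (SD, n = 3 each), and the rise was 5.56 on the log2 scale (SE 0.73, edgeR adjusted P = 0.000722). The 2 sham reads give a ratio of 56.3 with a counting interval of 15.2 to 471, and both came from sham mouse 2.

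Levels of different genes were compared per kilobase of exon (CPM per kb). In BCAS mice Nkg7 was highest at 1.21 ± 0.0956 (SD, n = 3), followed by Lck at 0.872 ± 0.212, Cd8b1 at 0.755 ± 0.0473 and Cd8a at 0.599 ± 0.0527. Cd3d had 0.435 ± 0.0953, Gzmb 0.363 ± 0.385, Cd4 0.328 ± 0.0669, Cd3g 0.278 ± 0.0775, Cd3e 0.19 ± 0.0395 and Cd247 0.0859 ± 0.0248. Among neighbours in this order, Lck and Cd8b1 differed by less than the SD of Lck, Cd4 and Cd3g by less than the SD of either, and Cd3d and Cd4 by less than the SD of Gzmb, which lay between them. Over the 2116 exon bases of Cd247 that no other gene shares, its level was 0.216 ± 0.0624, close to Cd3e. In sham mice Lck had 0.614 CPM per kb, and no other member exceeded the 0.0659 of Cd4. The difference between the groups per kilobase was 1.19 (SE 0.0592) for Nkg7, 0.755 (SE 0.0272) for Cd8b1, 0.572 (SE 0.0337) for Cd8a and 0.43 (SE 0.0553) for Cd3d. For Lck it was 0.258 (SE 0.134), of the same size as for Cd4 at 0.262 (SE 0.0389) and Cd3g at 0.254 (SE 0.0451), and it stood on a larger sham level.

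**Figure D2:**
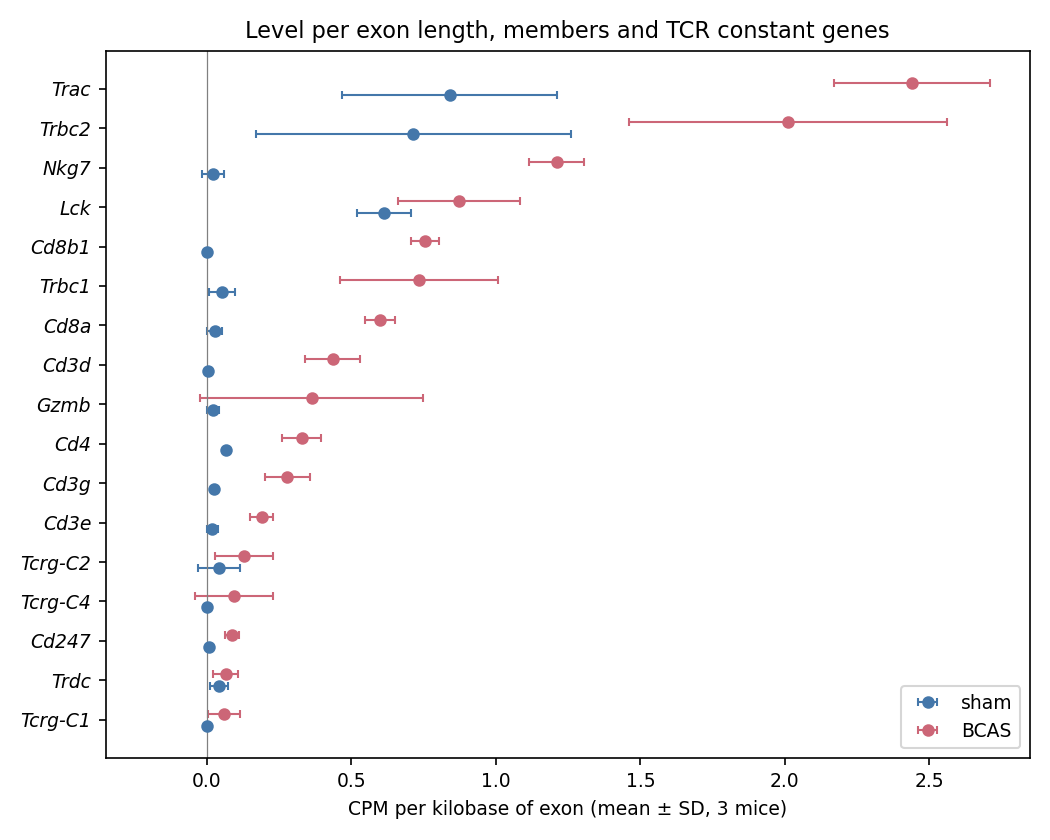
Mean level of each member in CPM per kilobase of exon in sham and BCAS mice, and of the receptor constant genes, as points with bars for the SD (n = 3 per group). Among the members, Lck had the smallest ratio of BCAS to sham level, and its sham level of 0.614 was the highest.

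The members also differed in how much the BCAS mice varied. Cd8b1, Nkg7 and Cd8a had coefficients of variation of 0.0623, 0.0788 and 0.0879, which are below the 0.169, 0.17 and 0.121 that counting alone gives for such counts. The CD3 genes and Cd4 ranged from 0.204 to 0.288, above their counting values of 0.155 to 0.264, from 0.207 against 0.203 for Cd3e to 0.278 against 0.188 for Cd3g. The counting values take all counts as independent, which mates of a read pair are not, so small excesses are not read as spread between mice. Lck had 0.244 against 0.112, and Gzmb 1.06 against 0.247, with a ratio of 9 between its highest and lowest count. The spread of Gzmb among BCAS mice thus exceeded that of every other member.

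The variable chains of the receptor were examined through their constant genes. Trac, the constant gene of the alpha chain, had 15, 26 and 39 counts in sham mice and 73, 77 and 64 in BCAS mice, with no overlap, and was a higher DEG (log2 fold change 1.53, SE 0.36, edgeR adjusted P = 0.0118), though not under glmTreat (adjusted P = 0.406, range over 16 alternatives 0.00121 to 0.406). Trbc1, a constant gene of the beta chain, had 2, 0 and 2 counts in sham mice and 19, 10 and 23 in BCAS mice and rose by 3.69 (SE 0.74, edgeR adjusted P = 0.00618) on the log2 scale. The other beta constant gene, Trbc2, had 11, 31 and 8 counts in sham mice and 31, 48 and 51 in BCAS mice, with a log2 fold change of 1.49 (SE 0.52) that did not pass the test (edgeR adjusted P = 0.0593), and its ratio of 2.81 was 4.99 without sham mouse 2. DESeq2 (adjusted P = 0.0352) and limma-voom (adjusted P = 0.0351) called Trbc2, as did 5 of 16 alternatives in all (adjusted P 0.0133 to 0.975). Trac and Trbc2 were thus above the limit in all sham mice, in which Cd3d, Cd247 and Cd8b1 were not. Trbc1 and Trbc2 are near-identical, and reads that fit both were not counted. The gamma and delta constant genes were too low to test. Trdc had 8, 1 and 8 counts in sham mice and 5, 5 and 14 in BCAS mice, Tcrg-C1 0, 0 and 0 and then 0, 3 and 2, Tcrg-C2 0, 0 and 4 and then 2, 2 and 7, and Tcrg-C4 0, 0 and 0 and then 8, 1 and 0. The groups overlapped or touched for each of these. Over 144 V segments, sham mice had 30, 6 and 19 counts and BCAS mice 44, 38 and 45. At least 1 count fell on 15, 4 and 7 segments in sham mice and on 25, 18 and 16 in BCAS mice, and no segment had more than 7 counts in a library. The 108 alpha V segments had 16, 6 and 9 counts in sham mice and 22, 15 and 14 in BCAS mice, and the groups overlapped. The 22 beta V segments had 10, 0 and 3 counts in sham mice and 15, 23 and 17 in BCAS mice, without overlap. The 5 delta segments, with 2, 0 and 7 and then 1, 0 and 7, and the 7 gamma segments, with 2, 0 and 0 and then 6, 0 and 7, overlapped. These groups do not cover all 144 segments, but they hold all of the counts.

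Among 20 genes of receptor signalling, 18 were tested, 10 were higher DEGs and 0 were lower by edgeR (2 lower at an unadjusted P under 0.05, 0 lower by DESeq2 or limma-voom), with a median log2 fold change of 1.17 against 0.02 for all tested genes. Of the 10, 4 passed the filter through the BCAS libraries alone, and 8.47% of all tested genes were higher DEGs. The most abundant of these DEGs were Csk (1.07, SE 0.13, edgeR adjusted P = 0.000479), Ptprc (3.96, SE 0.23, adjusted P = 1.63e-05), Vav1 (3.11, SE 0.23, adjusted P = 3.91e-05) and Lcp2 (2.75, SE 0.23, adjusted P = 6.73e-05). Csk lay near the fold threshold, and its call was lost without BCAS mouse 3 (0.95) and under glmTreat. These genes are active in other leukocytes and in microglia as well, and Ptprc encodes CD45, carried by all leukocytes. Lat, the adaptor that links the receptor to its downstream enzymes, had 10, 2 and 12 counts in sham mice and 36, 27 and 29 in BCAS mice and was a DEG (2.04, SE 0.53, edgeR adjusted P = 0.0194). The call of Lat was lost without sham mouse 1 (adjusted P = 0.0552), without BCAS mouse 1 (0.0557) and under glmTreat (0.257), and its adjusted P over 16 alternatives was 0.00653 to 0.257. Zap70, the kinase recruited to the phosphorylated CD3 chains, had 190, 152 and 153 counts in sham mice and 137, 91 and 84 in BCAS mice. Its log2 fold change was -0.56 (SE 0.22, edgeR adjusted P = 0.0866) and did not pass the test. Zap70 and Lck, both kinases at the top of the cascade, thus had over 50 counts in every sham mouse and were not called. Fyn, the related kinase that neurons also express, had a value of -0.17 (edgeR adjusted P = 0.101).

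Of 22 other T cell surface genes, 16 were tested and 10 were higher DEGs, compared with 8.47% of all tested genes. Their median log2 fold change was 2.10 over the tested genes of the list. Of these DEGs 7 passed the filter through the BCAS libraries alone, so the count and median depend on the filter and are given as a description. The DEGs highest in CPM were Lag3 and Pdcd1, inhibitory receptors of activated T cells that activated microglia can also express. Lag3 had 179, 183 and 207 counts in sham mice and 3374, 2951 and 4641 in BCAS mice, and rose by 4.38 on the log2 scale (SE 0.18, edgeR adjusted P = 4.87e-06). Pdcd1 had 2, 2 and 4 counts in sham mice and 229, 178 and 303 in BCAS mice, and rose by 6.52 on that scale (SE 0.36, edgeR adjusted P = 1.43e-05). Both were far above the CD3 genes in BCAS mice: per kilobase, Lag3 was 284, 285 and 299 times and Pdcd1 21.0, 18.8 and 21.4 times Cd3e in mice 1 to 3. Il2rb, a chain of the interleukin 2 receptor, rose by 2.40 (SE 0.43, edgeR adjusted P = 0.00346) and Cd5, a surface regulator of receptor signalling, by 3.92 (SE 0.77, adjusted P = 0.00543). Cd5 had 2, 8 and 3 counts in sham mice and 18, 60 and 108 in BCAS mice, and its ratio of 15.6 was 9.88 without BCAS mouse 3 and 27.3 without sham mouse 2. Thy1, which neurons express strongly, had a log2 fold change of -0.65 and was not a DEG. Thy1, at 495.5 and 316 CPM, and the lipid receptor S1pr1, at 160.2 and 200.7 CPM and also not a DEG, were the most abundant genes of the list in sham and BCAS mice.

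Of 12 transcription factors of T cell lineages, 8 were tested and 3 were higher DEGs, compared with 8.47% of all tested genes. The median log2 fold change of the list was 0.68, and 1 of the 3 passed the filter through the BCAS libraries alone. The summed level of the list was 175 to 208 CPM in sham mice and 142 to 172 CPM in BCAS mice. Its most abundant member, Bcl11b, which neurons also express, had 142.9 and 86.59 CPM, and its log2 fold change of -0.72 (edgeR adjusted P = 0.00396) was below the size set for a DEG. Lef1 rose by 1.03 (SE 0.17, edgeR adjusted P = 0.00247) and Tbx21, the factor of type 1 responses, by 1.72 (SE 0.57, adjusted P = 0.048). Lef1 lay near the fold threshold and was called under 11 of 16 alternatives, with a value of 0.95 to 0.99 and no call without sham mouse 1, sham mouse 3, BCAS mouse 2 or BCAS mouse 3. Tbx21 was close to the adjusted P threshold and was called under 5 of 16 alternatives, and only 1 of these factors was called without sham mouse 1, without sham mouse 3 or without BCAS mouse 3. Foxp3, the factor of regulatory T cells, had 5, 0 and 8 counts in sham mice and 17, 10 and 3 in BCAS mice. The groups overlapped, and Foxp3 was too low to test.

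Of 16 further cytotoxic effector genes, 11 were tested and 7 were higher DEGs, compared with 8.47% of all tested genes. The median log2 fold change was 1.82, and the summed level was 38.6 to 41.5 CPM in sham mice and 83.2 to 115 CPM in BCAS mice. Of the 7, 1 passed the filter through the BCAS libraries alone. The most abundant DEGs were Srgn, a proteoglycan of granules in many immune cells (1.98, SE 0.15, edgeR adjusted P = 3.74e-05), Tnfsf10, the death ligand TRAIL (1.23, SE 0.21, adjusted P = 0.00263), Unc13d, which primes granules for release (1.82, SE 0.22, adjusted P = 0.000427), and Ccl5. The call of Tnfsf10 was lost under glmTreat (adjusted P = 0.671). Ccl5, a chemokine of activated T and NK cells, had 12, 13 and 6 counts in sham mice and 113, 92 and 236 in BCAS mice (3.93, SE 0.47, edgeR adjusted P = 0.00041). BCAS mouse 3 had the highest count, as for Gzmb and also for Ptprc (1657, 1691 and 2535 in BCAS mice). In contrast, Prf1 and Gzma, given below, had their lowest BCAS counts in that mouse. The defining killing genes were lower in abundance. Prf1, which encodes perforin, had 2, 2 and 0 counts in sham mice and 14, 8 and 4 in BCAS mice. Gzma had 0, 0 and 6 counts in sham mice and 17, 14 and 7 in BCAS mice, and Ifng, the cytokine of type 1 cells, 0, 0 and 0 and then 2, 2 and 0. Prf1 and Gzma failed the filter, and both were higher in every BCAS mouse than in every sham mouse, as were 25.3% of tested genes. Ifng was not above the limit in any library. Gzmm, another granzyme, had a log2 fold change of -0.74 and did not pass the test (edgeR adjusted P = 0.0567).

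**Figure D3:**
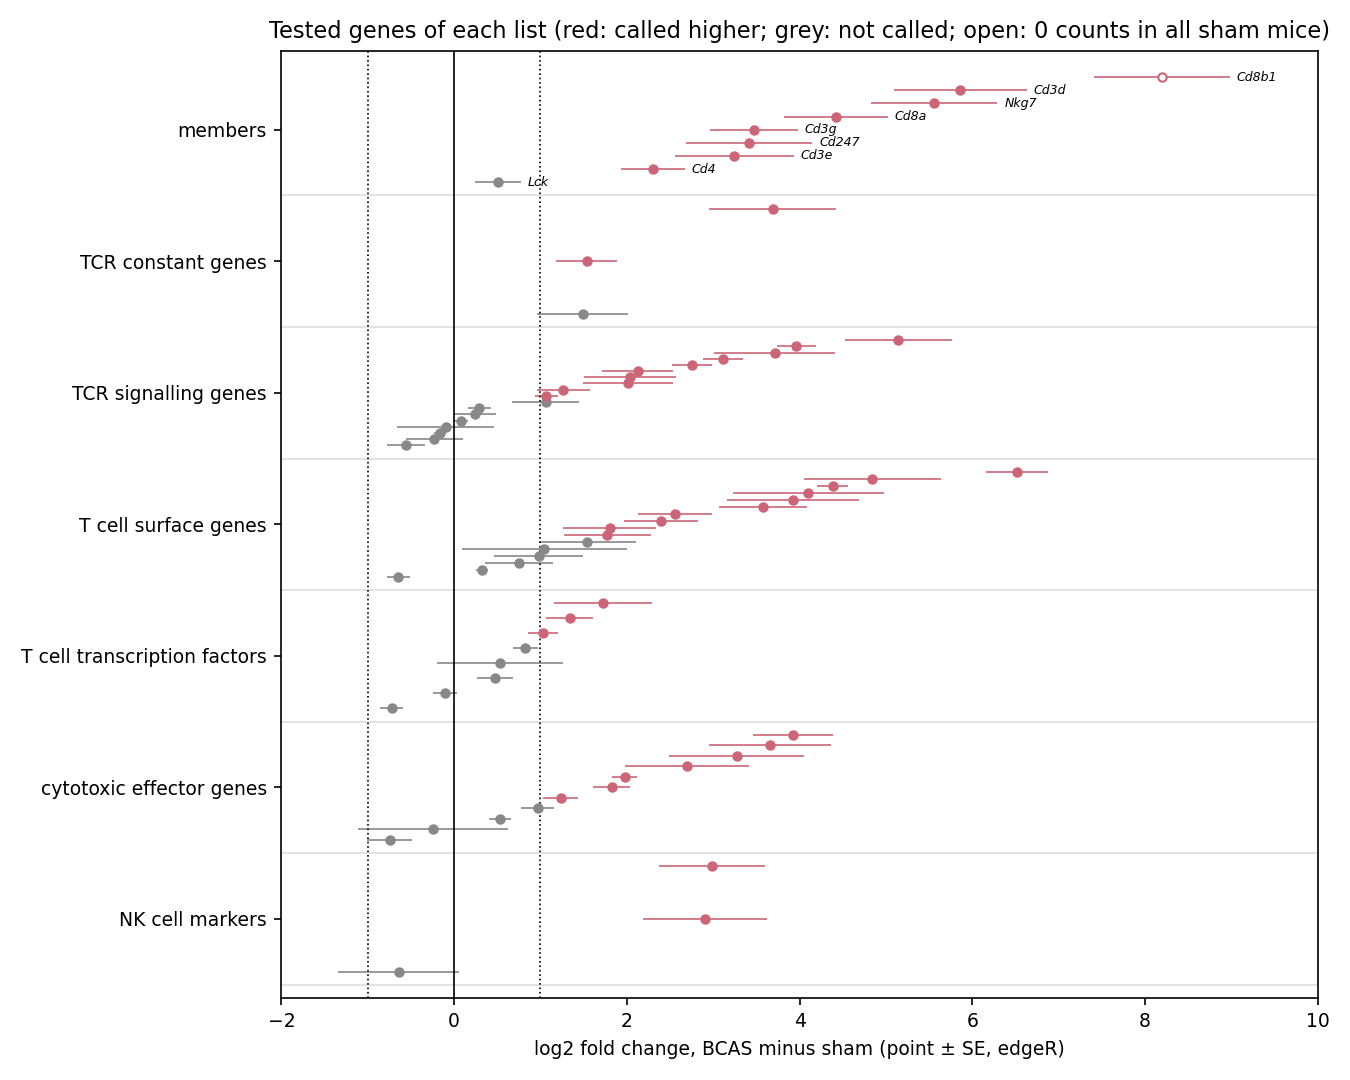
Log2 fold change between BCAS and sham mice with its SE from edgeR for the tested genes of each list, where red marks DEGs, grey marks genes without a call and dotted lines mark the fold change threshold. The open point is Cd8b1, whose sham counts were all 0, so that its fitted value depends on the prior count and is not a measured fold.

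Nkg7 and Gzmb are shared with NK cells, so NK markers were counted beside them. Of 11 NK markers, 3 were tested and 2 were higher DEGs (1 without BCAS mouse 3), compared with 8.47% of all tested genes. Both passed the filter through the BCAS libraries alone. The sum of the markers was 0.413 to 1.28 CPM in sham mice and 2.4 to 4.58 CPM in BCAS mice. Klrd1 had 4, 2 and 4 counts in sham mice and 13, 40 and 22 in BCAS mice (2.99, SE 0.61, edgeR adjusted P = 0.00692), and Klrk1 rose by 2.90 (SE 0.72, adjusted P = 0.0157, with 0.0547 without BCAS mouse 3 and 0.00583 to 0.141 over the alternatives), both of which CD8 T cells also carry. Neither was called under glmTreat (adjusted P = 0.0571 for Klrd1 and 0.141 for Klrk1). The more NK-restricted Ncr1 had 0, 0 and 2 counts in sham mice and 6, 4 and 12 in BCAS mice, and Klrb1c 0, 2 and 2 and then 3, 9 and 9. Klrg1, the remaining tested marker, had 4, 10 and 32 counts in sham mice and 10, 10 and 7 in BCAS mice and was not a DEG. Counts of all NK markers were 2.8, 3.14 and 4.89 times the CD3 chain counts in sham mice 1 to 3, and 0.94, 1.19 and 1.42 times in BCAS mice, without overlap (two-sided exact permutation P = 0.1, the smallest possible). Without Klrg1 the ratios were 2, 1.71 and 1.33 in sham mice and 0.819, 1.08 and 1.35 in BCAS mice, and the groups overlapped (exact P = 0.2). The CD3 chain genes passed the filter through the BCAS libraries alone, so these P values are given as a description. Genes of both cell types were thus above the limit in BCAS tissue, and the part of NK cells in the Nkg7 and Gzmb counts was not tested.

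Other cell types moved with the groups too. All 9 microglia markers were higher DEGs, compared with 8.47% of all tested genes. Their sum was 312 to 322 CPM in sham mice and 1660 to 2630 CPM in BCAS mice. Of the B cell markers, 5 of 7 tested were higher DEGs (13.5 to 24.6 and 68.4 to 97.5 CPM), namely Ighm (1.93), Cd22 (5.46), Igkc (3.34), Jchain (2.28) and Cd79b (2.31) on the log2 scale. Cd79a, the partner of Cd79b in the B cell receptor, had 5, 20 and 6 counts in sham mice and 13, 13 and 26 in BCAS mice and was not a DEG. Of the dendritic cell markers, 4 of 9 tested were higher DEGs (29.9 to 35.4 and 119 to 148 CPM). Without Itgax and Siglech, which microglia also express, the sum of the other 8 was 16.4 to 20.4 CPM in sham mice and 18.5 to 22.4 CPM in BCAS mice, with overlap. Among these, Xcr1 (4, 0 and 1 counts in sham mice, 10, 10 and 12 in BCAS mice) and Batf3 (23, 23 and 18, then 45, 41 and 72), markers of the dendritic cells that carry Cd8a, were DEGs by edgeR (2.70, adjusted P = 0.0302, and 1.41, adjusted P = 0.0142), called under 5 and 13 of 16 alternatives. The log2 fold change of Xcr1 was 4.21 without sham mouse 1 and 2.16 without sham mouse 2. Flt3, Zbtb46 and Clec9a were not called. Most of the sum of the 8 came from Flt3 (means of 7.73 CPM in sham and 6.27 CPM in BCAS mice) and Zbtb46 (8.96 and 9.4 CPM). Its overlap thus says little about the rarer markers. Higher DEGs were, of the monocyte markers, 3 of 5 (21.3 to 24.7 and 33.5 to 47.3 CPM), and, of the border macrophage markers, 4 of 6 (10.3 to 14.8 and 25.7 to 33.5 CPM). Most of the monocyte sum was Vcan, not a DEG, at means of 21.9 CPM in sham and 29.9 CPM in BCAS mice. The monocyte DEGs Ly6c2, Ccr2 and Plac8 had means of 0.00997, 0.501 and 0.0782 CPM in sham mice. Their BCAS means were 1.975, 4.35 and 1.95 CPM. Of the 3 monocyte DEGs, 2 passed the filter through the BCAS libraries alone. So did 1 of the 5 B cell DEGs and 1 of the 4 dendritic cell DEGs. Such genes had to differ to be tested, so the numbers of DEGs are given as a description. Dendritic cells and macrophages can carry Cd4 or Cd8a, and their part in those counts was not tested. Neutrophil markers were 0.897 to 2.36 CPM in sham mice and 1.05 to 3.78 CPM in BCAS mice, with Ly6g at 0 in all libraries. Mast cell markers, mostly Kit, were 118 to 121 CPM and 65.4 to 89.7 CPM, with Fcer1a at 0 in all libraries. Kit was not a DEG, and Cpa3, Mcpt4, Tpsb2 and Cma1 had at most 9 counts in any library. The sum thus follows Kit and says little about the other markers.

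Erythroid genes, which mark blood left in the tissue, were 85.6 to 102 CPM in sham mice and 106 to 177 CPM in BCAS mice, and edgeR called 0 of 5 (3 higher at an unadjusted P under 0.05, 0 called by DESeq2 or limma-voom). Blood carries T cells, and the erythroid sum was higher in all BCAS mice, with means of 93.2 and 132 CPM beside the 14.2-fold ratio of the CD3 chains. Its part in the member counts was not tested. The choroid plexus gene Ttr had 882, 3770 and 38.0 CPM in sham mice and 5450, 23.6 and 2930 CPM in BCAS mice. Beside these values the CD3 chain counts were 5, 7 and 9 in sham mice and 83, 91 and 101 in BCAS mice, and the part of choroid plexus tissue in them was not tested.

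The CD3 chains were then set against other immune genes within each library. Per 1000 counts of Ptprc, CD3 chain counts were 36.2, 68.6 and 53.3 in sham mice and 50.1, 53.8 and 39.8 in BCAS mice. The means were 52.7 ± 16.2 and 47.9 ± 7.24 (SD, n = 3 each), the BCAS values lay inside the sham range, and the two-sided exact permutation test gave P = 0.8, with each sham ratio resting on 9 CD3 counts or fewer. Per 1000 microglia marker counts, CD3 chain counts were 0.458, 0.671 and 0.837 in sham mice and 1.54, 1.74 and 1.23 in BCAS mice. These did not overlap and reached the smallest P the exact test allows (P = 0.1). Against Csf1r alone the values were 1.65, 2.47 and 3.09 in sham mice and 6.32, 6.43 and 4.8 in BCAS mice (exact P = 0.1). The CD3 chain genes passed the filter through the BCAS libraries alone and were chosen with earlier results known. The P values of these ratios are therefore given as a description. Relative to microglia markers, the CD3 chains were thus higher in every BCAS mouse than in any sham mouse, whereas relative to Ptprc the groups overlapped.

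**Figure D4:**
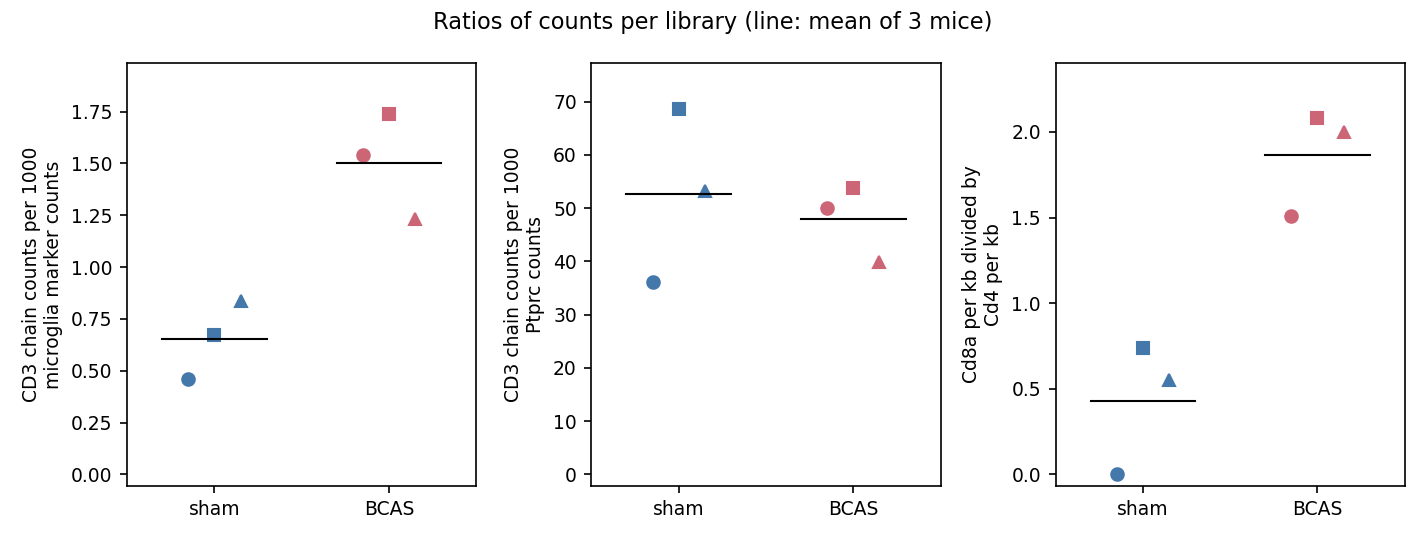
Ratios within each library, with 1 point per mouse, for CD3 chain counts against Ptprc and microglia markers and for Cd8a against Cd4 per kilobase. The groups overlapped for Ptprc and were apart for the microglia markers and for Cd8a over Cd4.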

How the data were processed

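RNA was measured in the right hippocampus of 3 sham and 3 BCAS mice, grouped by their labels. Reads were trimmed with Trim Galore, mapped to mm10 with HISAT2 and assigned to genes by featureCounts, per the labels and methods. The deposited counts per gene are whole numbers, neither normalized nor filtered. The file headers name featureCounts 2.0.3 and GENCODE vM20, whereas the submitters' processing notes name version 1.6.3. Mates were counted separately, strand was ignored, and reads on exons of more than 1 gene or with several alignments were not assigned. Symbols came from a table of gene identifiers.

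Tests used edgeR 4.0.16 in R 4.3.3 (filterByExpr, TMM, glmQLFit, glmQLFTest, no block, Benjamini-Hochberg adjustment) on all 6 libraries, and the steps were tested on simulated data. DESeq2 1.42.0 and limma-voom (limma 3.58.1) were alternatives, with other filters, scalings and thresholds, halved counts and each mouse left out. Ratio intervals are exact 95% counting intervals. Members and gene lists were chosen with earlier results of these data known. Named genes are the members, the receptor constant genes, the 4 most abundant DEGs of each list (microglia and other cell type lists by their sums) and chosen defining genes. Thy1, S1pr1, Bcl11b, Cd79b, Xcr1, Batf3, Flt3, Zbtb46, Clec9a, Fyn, Gzmm, Klrg1, Csf1r, Kit, Ttr, Vcan, Ly6c2, Ccr2, Plac8, Cpa3, Mcpt4, Tpsb2 and Cma1 were chosen after their values were seen. So were the sums of NK markers without Klrg1 and of dendritic cell markers without Itgax and Siglech. Some genes that this rule names are not reported here.

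Equal replicate numbers were not treated as pairs, since the correlations between the residuals of such libraries were 0.036, -0.314 and -0.158. Mice are numbered by the labels, whereas the BCAS columns inside the tables are numbered 2 to 4, and the replicate block and these correlations rest on the numbers of the labels. Replicates of a group differed by more than counting noise.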

Additional observations from a re-analysis of the deposited data

How the results depend on the processing

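The count of 8 members called higher stayed at 6 to 9 over 16 alternatives. It was 9 with DESeq2 and with at least 1 count as filter, which test Gzmb, 7 with a mean of at least 10 counts or with counts halved, which leave out Cd247, and 6 with glmTreat, which does not call Cd3e or Cd247. Lck was not called under any alternative (adjusted P 0.134 to 1). With the replicate block, 8 members were called, 7.72% of tested genes were called higher, and the adjusted P of Cd247 was 0.034. The share of tested genes called higher was 5.37% with at least 1 count, 18.0% without a fold threshold and 4.32% with glmTreat. With glmTreat the counts called were 5 for receptor signalling genes, 0 for transcription factors, 4 for cytotoxic effector genes and 0 for NK markers, with 8, 2, 7 and 2 at an unadjusted P under 0.05. NK markers called were 5 with at least 1 count and 0 with edgeR on halved counts (0 at an unadjusted P under 0.05, where DESeq2 on full counts called 3). Leaving out 1 mouse gave 1 to 3 transcription factors and 1 to 3 NK markers, with 1 transcription factor without sham mouse 1, sham mouse 3 or BCAS mouse 3, and 1 NK marker without BCAS mouse 3. Ratios of summed CPM were 12.4 to 16.4 for the CD3 chains and 4.47 to 5.2 for all members, and that of Gzmb was 6.97 to 35.8. Depth limits the sham values, since all members but Cd4, Cd8a and Lck lay at 0 to 5 counts there.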
